A study of Mus musculus with 10 samples.

Results

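The AP-1 and immediate early genes were defined by name as Fos, Fosb, Fosl1, Fosl2, Jun, Junb, Jund, Egr1, Atf3 and Ier2. Of these 10 genes, 9 had a probe set of their own among the 17919 genes of the arrays. The probe set for Fosl1 was shared with Ccdc85b, so Fosl1 has no value here. RNA came from entire lungs of mouse embryos at E18.5, shortly before birth, and each lung was read on 1 Affymetrix array. The knockout group, labelled Shhcre:Hdac3fl/fl and Hdac3 KO, held 5 lungs in which Shh-Cre deleted floxed Hdac3, a histone deacetylase. The control group, labelled Shhcre control, held 5 lungs that carry the same Cre. Which Hdac3 alleles the controls carry is not labelled; with the stated cross of Hdac3 fl/fl females, every embryo receives a floxed maternal allele, so a control with Shh-Cre would be heterozygous for the deletion in its Cre-active cells. Shh-Cre acts in the lung epithelium, so the other cells of the organ keep Hdac3 and contribute to each value. The strain background was C57BL/6 and 129X1,129S6 in both groups. All lungs were collected in RNA later.

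Fos and Jun proteins pair through leucine zippers to form AP-1, a transcription factor that binds DNA as a dimer. Immediate early genes such as Fos, Egr1 and Ier2 are transcribed within minutes of a stimulus, without new protein synthesis, through factors that are already present, and their RNAs are short-lived. Dissection, warming and delay before preservation are known to raise them in many tissues, so their values are given for each lung.

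Levels are log2 probe set values as the authors deposited them, and a difference of 1 is a 2-fold change. Hdac3 itself averaged 10.50 ± 0.11 in knockout lungs and 10.81 ± 0.10 in control lungs (SD, n = 5 each), and the groups did not overlap (limma adjusted p = 0.0203). The 10 epithelial marker genes used to check the tissue were all measured, and their mean ran from 11.19 to 11.30 in knockout lungs and from 11.21 to 11.27 in control lungs. Limma called 0 of the 10, against 3.12% of all genes. This mean joins single changes in both directions, such as Cdh1 at 0.18 and Sftpa1 at -0.48 (limma adjusted p = 0.0517 and 0.0899). With lungs 1 to 3 against 4 and 5 as a block, Cdh1 passed (limma adjusted p = 0.0372). The lungs stood apart by number as well as by genotype. On a second principal component computed without any listed gene (22.0% of the variance of 17730 genes), knockout lungs 1 to 3 lay from -0.36 to 4.31 and knockout lungs 4 and 5 at -13.12 and -16.57, while control lungs 1 to 3 lay from 8.55 to 14.36 and control lungs 4 and 5 at -3.27 and -3.38. The first component (26.3% of the variance) placed knockout lungs 1 to 3 from 9.25 to 16.6 and knockout lungs 4 and 5 at 0.27 and 4.52. It placed control lungs 1 to 3 from -5.42 to -1.77 and control lungs 4 and 5 at -16.35 and -14.58. Neither component thus follows the lung number alone, since each also separated the genotypes within each set of numbers. No batch is named in the labels, and what a number shares is not stated. Xist, a female-specific transcript, was high in lung 1 of each group (11.47 in the knockout lung, 11.21 in the control lung) and from 4.95 to 5.13 in the other 8 lungs, so sex does not follow the split between numbers 1 to 3 and 4 and 5.

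Junb passed the test and rose in the knockout. Of the other 8 measured genes, 0 passed it (limma, adjusted p of at most 0.05). Of these 8, 3 had an unadjusted p under 0.05, against 13.5% of all genes. Blocking on the replicate number, Fos, Jund and Ier2 passed as well. In 6 genes, among them Fos, Egr1 and Atf3, lungs 1 to 3 all lay above lungs 4 and 5 of the same genotype. The 1 called gene of 9 compares with 559 of all 17919 genes, or 3.12%. The median change of the 9 genes was 0.31 on the log2 scale, against 0.00 for all genes. Of the 9 estimates, 7 were positive, that of Fosl2 was 0.00 and that of Egr1 was negative. Within same-numbered lungs the knockout lung was higher at all 5 numbers for 7 genes (Fos, Fosb, Jun, Junb, Jund, Atf3 and Ier2), and such an order was found for 8.7% of all genes. The Fosb difference at number 5 was 0.00 at 2 decimals.

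Junb encodes a Jun protein that often acts against Jun in proliferation. Its level was 9.69, 9.73, 9.65, 9.81 and 9.35 in knockout lungs 1 to 5, against 9.18, 9.19, 9.14, 8.95 and 8.77 in control lungs 1 to 5. Every knockout lung lay above every control lung, an order found for 2.44% of all genes, and the lowest knockout lung was number 5, as was the lowest control lung. The log2 change was 0.60 ± 0.10 (SE; 95% interval 0.38 to 0.82), a 1.52-fold rise (limma adjusted p = 0.00559; two-sided exact permutation p = 0.00794, the smallest that 5 lungs against 5 can give). Within lungs 1 to 3 the change was 0.52 ± 0.05 (SE; limma adjusted p = 0.00248), where Junb was the 1 member called and 2.5% of all genes passed. Within lungs 4 and 5 it was 0.72 ± 0.17 (SE; limma adjusted p = 0.337), where 0 members and 0.0112% of all genes passed. In whole lung, more cells of a type and more RNA per cell cannot be told apart, for Junb and for each gene below.

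**Figure D1:**
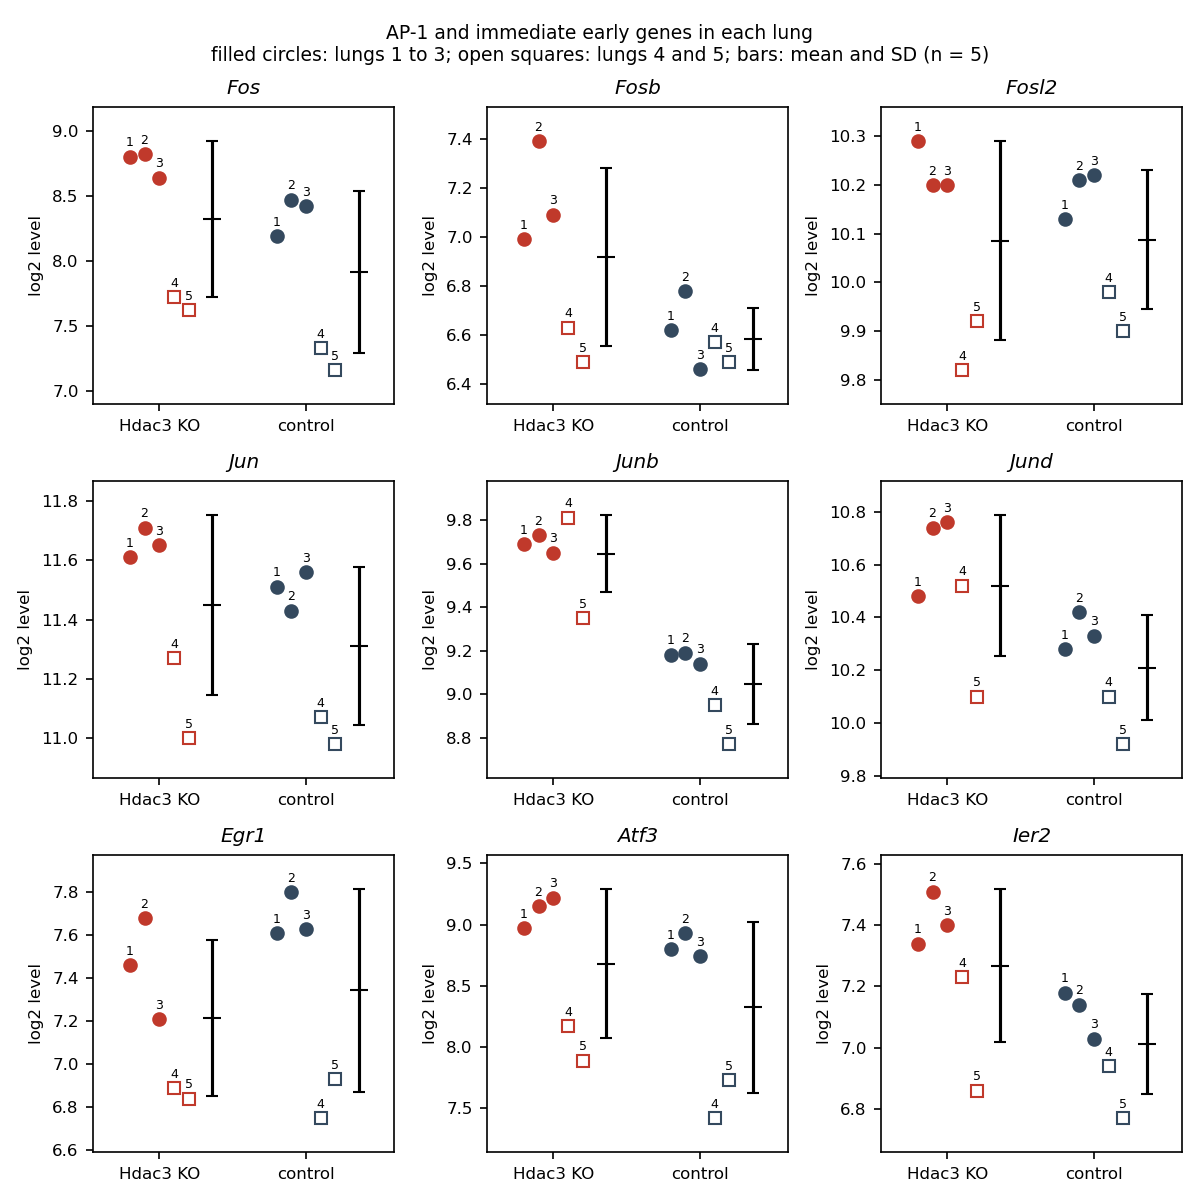
Log2 level of the 9 measured genes in each lung, with Hdac3 knockout at the left and control at the right of each panel; digits are lung numbers and bars show the mean and SD (n = 5). Junb is the panel without overlap between groups, with knockout lungs from 9.35 to 9.81 and control lungs from 8.77 to 9.19; for Fos, lungs 4 and 5 (open squares) lie well below lungs 1 to 3 (filled circles) in both groups.

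The DNA just before the gene start is shown for Junb, which passed the test, and for Fos, Jun and Atf3, whose levels shared the split by lung number. Fosl2 shared that split and has a promoter entry too, but its stretch is not shown. The stretches are the 150 bases before the RefSeq start in GRCm38.p6, read 5′ to 3′ on the gene's strand, and capitals mark motif matches.
Junb, chr8:84978749-84978898 (- strand): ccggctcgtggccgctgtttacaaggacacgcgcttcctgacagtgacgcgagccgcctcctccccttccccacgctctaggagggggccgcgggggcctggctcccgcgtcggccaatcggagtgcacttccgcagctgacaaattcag
Fos, chr12:85473740-85473889 (+ strand): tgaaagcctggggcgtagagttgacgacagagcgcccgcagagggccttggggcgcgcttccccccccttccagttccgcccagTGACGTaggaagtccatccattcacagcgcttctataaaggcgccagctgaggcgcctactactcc
Jun, chr4:95052223-95052372 (- strand): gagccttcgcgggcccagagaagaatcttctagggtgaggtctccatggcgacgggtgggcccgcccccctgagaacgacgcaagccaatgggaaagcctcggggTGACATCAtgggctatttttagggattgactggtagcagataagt
Atf3, chr1:191183334-191183483 (- strand): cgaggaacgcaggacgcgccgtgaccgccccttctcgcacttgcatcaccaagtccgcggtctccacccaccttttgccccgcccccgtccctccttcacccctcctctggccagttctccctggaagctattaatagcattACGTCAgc
Motifs were searched on both strands in the 250 bases before the start of the 7 genes with an entry (Fos, Fosb, Fosl2, Jun, Junb, Jund and Atf3). The capitals in Fos and Atf3 are the CRE-like core TGACGT, which is read by CREB and ATF proteins (bases 66 to 61 before the Fos start, and bases 8 to 3 before the Atf3 start, on the other strand). This core was present in 6.47% of all 32851 promoters of the table. The capitals in Jun are a match to TGACNTCA, a site for Jun and ATF dimers at bases 45 to 38 before the start, present in 7.49% of promoters. TGACNTCA and TGACGT can overlap each other. The AP-1 site TGANTCA (6.75% of promoters) and the CArG box of serum response factor (1.47%) had 0 matches in these 250 bases of the 7 genes. Sites farther upstream were not searched. The EGR site GCGNGGGCG (4.7%) had a match in Fosl2 and in Fosb. The Fosb window began at base 19310046 of chromosome 7, inside the gene, which runs to base 19310118. Its match, at bases 50 to 42 before the start of that entry, therefore lies within the gene's full extent. Junb had none of these letters in the window.

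Among the Fos family genes, Fos, the inducible partner of Jun in AP-1, was 8.80, 8.82, 8.64, 7.72 and 7.62 in knockout lungs 1 to 5, against 8.19, 8.47, 8.42, 7.33 and 7.16 in control lungs 1 to 5. In each group lungs 1 to 3 lay above lungs 4 and 5, and the groups overlapped. The difference between the highest and the lowest lung was 1.66, or 3.17-fold, against a median of 0.36 over all genes. The change between genotypes was 0.41 ± 0.32 (SE; 95% interval -0.29 to 1.10; limma adjusted p = 0.668). Knockout minus control was 0.61, 0.35, 0.22, 0.39 and 0.46 at numbers 1 to 5, and a fit that blocked on the replicate number gave the same estimate with an SE of 0.06, which passed (limma adjusted p = 0.00792). It was 0.39 ± 0.09 (SE) within lungs 1 to 3 and 0.43 ± 0.10 within lungs 4 and 5.

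Fosb, a second inducible Fos protein, was 6.99, 7.39, 7.09, 6.63 and 6.49 in knockout lungs 1 to 5, against 6.62, 6.78, 6.46, 6.57 and 6.49 in control lungs 1 to 5. Knockout lungs 1 to 3 lay above every control lung, and knockout lungs 4 and 5 lay among the controls. The change was 0.33 ± 0.14 (SE; limma adjusted p = 0.333), with 0.54 ± 0.12 (SE) within lungs 1 to 3 and 0.03 ± 0.09 within lungs 4 and 5. The difference between these sets was not tested. Fosl2, a Fos protein that lacks the strong activation domain of Fos, was 10.29, 10.20, 10.20, 9.82 and 9.92 in knockout lungs 1 to 5, against 10.13, 10.21, 10.22, 9.98 and 9.90 in control lungs 1 to 5. Lungs 4 and 5 were again the lowest of each group, and the change between genotypes was 0.00 ± 0.10 (SE; 95% interval -0.21 to 0.21).

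Among the other Jun family genes, Jun, the main DNA-binding partner of Fos, was 11.61, 11.71, 11.65, 11.27 and 11.00 in knockout lungs 1 to 5, against 11.51, 11.43, 11.56, 11.07 and 10.98 in control lungs 1 to 5. The groups overlapped, and lungs 4 and 5 were the lowest in both. The change of 0.14 ± 0.15 (SE; 95% interval -0.19 to 0.47) did not pass (limma adjusted p = 0.785, and 0.202 with the replicate block), and it was 0.06 without control lung 5 and 0.25 without knockout lung 5. Jund, the Jun family gene that is expressed with little dependence on stimulation, was 10.48, 10.74, 10.76, 10.52 and 10.10 in knockout lungs 1 to 5, against 10.28, 10.42, 10.33, 10.10 and 9.92 in control lungs 1 to 5. Knockout lung 5 lay within the control range, and the other 4 knockout lungs lay above every control lung. The change was 0.31 ± 0.13 (SE; limma adjusted p = 0.30), and passed with the replicate block (SE 0.05, limma adjusted p = 0.0172) but not with lungs 1 to 3 against 4 and 5 as the block (0.0629). A second and dimmer Jund probe set had a log2 change of 0.07 ± 0.06 (SE; limma adjusted p = 0.728).

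Egr1, a zinc finger factor induced through serum response factor, was 7.46, 7.68, 7.21, 6.89 and 6.84 in knockout lungs 1 to 5, against 7.61, 7.80, 7.63, 6.75 and 6.93 in control lungs 1 to 5. Its estimate was negative, -0.13 ± 0.22 (SE; 95% interval -0.61 to 0.35; limma adjusted p = 0.886), and it was -0.01 without control lung 2 and -0.28 without control lung 4. Lungs 1 to 3 lay above lungs 4 and 5 in both groups. Within lungs 1 to 3 the change was -0.23 ± 0.11 (SE), and within lungs 4 and 5 it was 0.03 ± 0.10.

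Atf3, a stress-induced bZIP factor that pairs with Jun proteins, had the widest range of the 9 genes, 1.80 on the log2 scale or 3.47-fold between the highest and the lowest lung. It was 8.97, 9.15, 9.22, 8.17 and 7.89 in knockout lungs 1 to 5, against 8.80, 8.93, 8.74, 7.42 and 7.73 in control lungs 1 to 5. The change between genotypes was 0.36 ± 0.34 (SE; limma adjusted p = 0.737). With the replicate block it stayed short of the threshold (SE 0.09, limma adjusted p = 0.0619), and with lungs 1 to 3 against 4 and 5 as the block it passed (SE 0.08, limma adjusted p = 0.0288). Ier2, a small nuclear immediate early protein, was 7.34, 7.51, 7.40, 7.23 and 6.86 in knockout lungs 1 to 5, against 7.18, 7.14, 7.03, 6.94 and 6.77 in control lungs 1 to 5. Knockout lung 5 was low among the controls, and the other 4 knockout lungs lay above all of them. The change was 0.26 ± 0.12 (SE; limma adjusted p = 0.356), and passed with the replicate block (SE 0.06, limma adjusted p = 0.0413) but not with the block of number sets (0.0767).

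When the fit blocked on the replicate number, 4 of the 9 genes passed (Fos, Junb, Jund and Ier2), all higher in the knockout, against 4.72% of all genes in either direction and 2.28% higher. With lungs 1 to 3 against 4 and 5 as the block, a split known from earlier results of these data, 3 passed (Fos, Junb and Atf3), all higher in the knockout, against 5.08% of all genes in either direction and 2.54% higher. Junb was the gene called in all 3 fits.

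**Figure D2:**
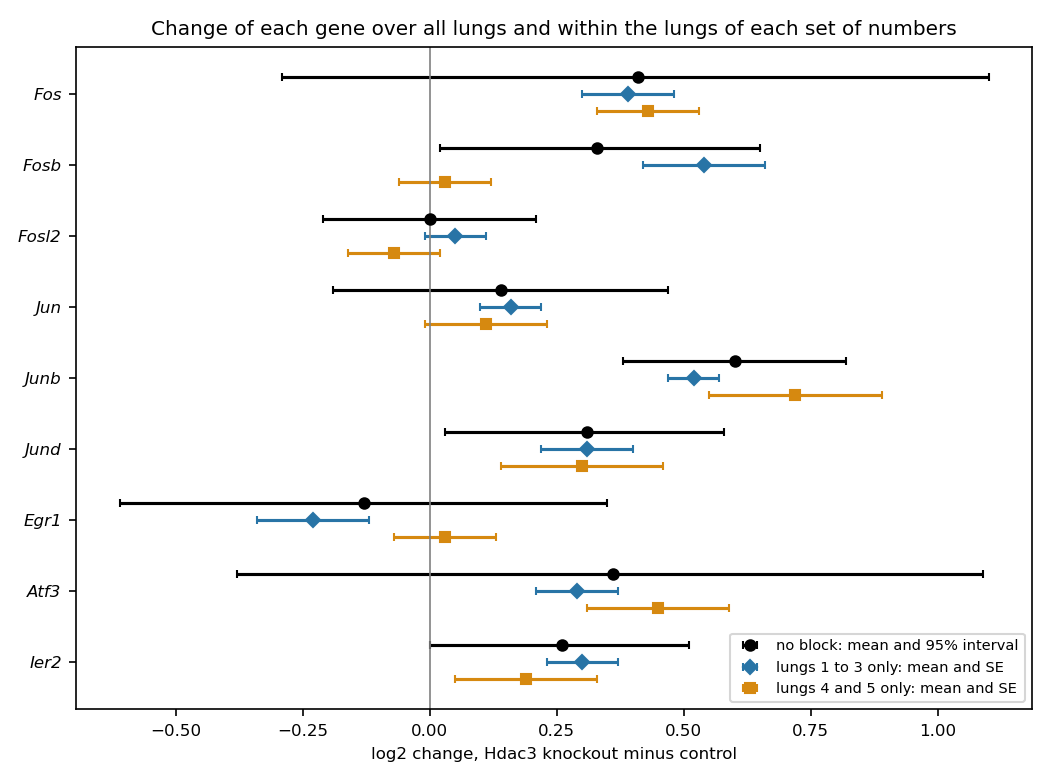
Log2 change, knockout minus control, of the 9 genes over all 10 lungs without a block (black, with 95% intervals), within lungs 1 to 3 (blue, with SE) and within lungs 4 and 5 (orange, with SE). Junb is right of 0 in all 3; Fos has like estimates (0.41, 0.39 and 0.43) and a black interval that reaches below 0.

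The split between lung numbers was a feature of 6 of the 9 genes: for Fos, Fosl2, Jun, Egr1, Atf3 and Ier2, lungs 1 to 3 all lay above lungs 4 and 5 in the knockout group and in the control group. This order was found for 7.4% of all genes, and the reverse order for 6.28%. For Junb it held in the controls only, since knockout lung 4 was the highest knockout lung, and for Jund likewise knockout lung 4 lay above knockout lung 1. Fosb showed it in the knockout group only. These lungs fall into separate clusters, so no correlation value over all 10 lungs is given. Within the 6 lungs numbered 1 to 3, with each genotype's mean removed, the strongest of the 8 relations to Fos by Pearson correlation was with Fosl2 (r = 0.72, exact permutation p = 0.278; Spearman rho = 0.31, exact permutation p = 0.611), and the strongest by Spearman correlation was with Egr1 (rho = 0.83, exact permutation p = 0.0556; r = 0.69, exact permutation p = 0.139). All 8 had an adjusted p of 0.889 for Pearson's r. With 6 lungs, leaving out the 2 farthest from the Fos median would leave too few for a correlation. How the lungs of different numbers were handled is not given in the labels, and its part in these values was not tested.

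**Figure D3:**
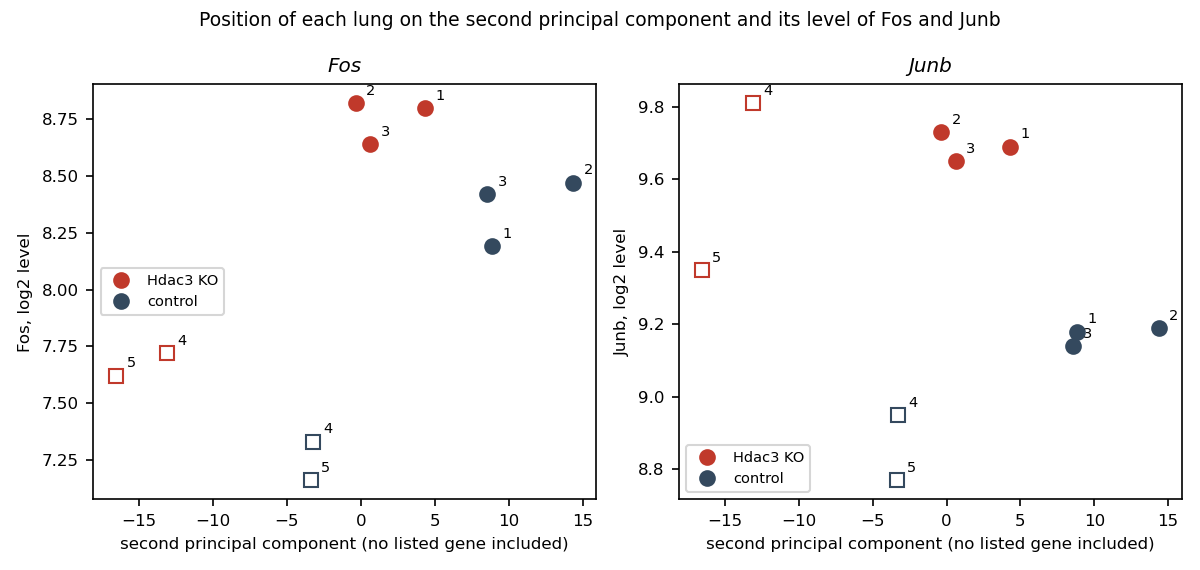
Level of Fos (left) and Junb (right) of each lung against its place on the second principal component, which was computed without any of the listed genes; red is knockout, dark blue is control, and open squares are lungs 4 and 5. Fos is lowest in lungs 4 and 5 of either genotype (7.16 to 7.72), while for Junb the genotypes lie apart, with knockout lung 4 the highest at 9.81.

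A wider list of 37 other immediate early genes was fixed with earlier results of these data known, and all 37 were measured. Of these, 2 rose and 0 fell (limma adjusted p of at most 0.05), against 1.54% of all genes that rose and 1.58% that fell; the list's median change was 0.11, against 0.00 for all genes. Btg2, an antiproliferative gene induced by p53 and growth factors, was 11.17, 11.15, 10.96, 11.20 and 11.00 in knockout lungs 1 to 5, against 10.28, 10.51, 10.36, 10.50 and 10.27 in control lungs 1 to 5. Its groups did not overlap, and lungs 4 and 5 did not stand apart from lungs 1 to 3. The change was 0.71 ± 0.07 (SE; limma adjusted p = 0.000111). Arc, an immediate early gene best known from neurons, averaged 8.28 ± 0.12 in knockout lungs and 8.01 ± 0.08 in control lungs (SD, n = 5 each), a change of 0.26 ± 0.06 (SE; limma adjusted p = 0.0476), which passed with lungs 1 to 3 against 4 and 5 as the block (0.0395) and not with the replicate block (0.0825).

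Blocking on the replicate number, 5 of the 37 rose and 1 fell, against 2.28% of all genes that rose and 4.72% called in either direction. The 4 rises added to Btg2, named after their values were seen, were Sik1, a kinase induced by cAMP (0.30, limma adjusted p = 0.00733 with the block), the nuclear receptor gene Nr4a1 (0.26, 0.0230), the cytokine feedback inhibitor gene Socs3 (0.32, 0.0394) and the stress gene Gadd45g (0.28, 0.0464). Ccn2, a matricellular target of TGF-beta and YAP, fell by 0.35 on the log2 scale (limma adjusted p = 0.0435 with the block, 0.237 without it). With lungs 1 to 3 against 4 and 5 as the block, 6 of the 37 rose and 1 fell, against 2.54% of all genes that rose and 5.08% called in either direction; Nr4a1 did not pass there (limma adjusted p = 0.143), and Klf10, a TGF-beta-induced factor, did (0.26, 0.0459). The split by number was found in 13 of the 37 genes, with lungs 1 to 3 above lungs 4 and 5 in both groups, against 7.4% of all genes. They were Nr4a1, Klf4, Klf6, Zfp36, Dusp1, Csrnp1, Ccn1, Gadd45g, Rhob, Errfi1, Sik1, Hbegf and Ppp1r15a. Dusp1, a phosphatase that switches off MAP kinases, was 11.14, 11.33, 11.27, 10.49 and 10.31 in knockout lungs 1 to 5, against 11.00, 10.92, 10.97, 10.31 and 10.36 in control lungs 1 to 5 (limma adjusted p = 0.785). The reverse order was found in 3 of the 37: Ier3, Gadd45b and Ccn2.

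**Figure D4:**
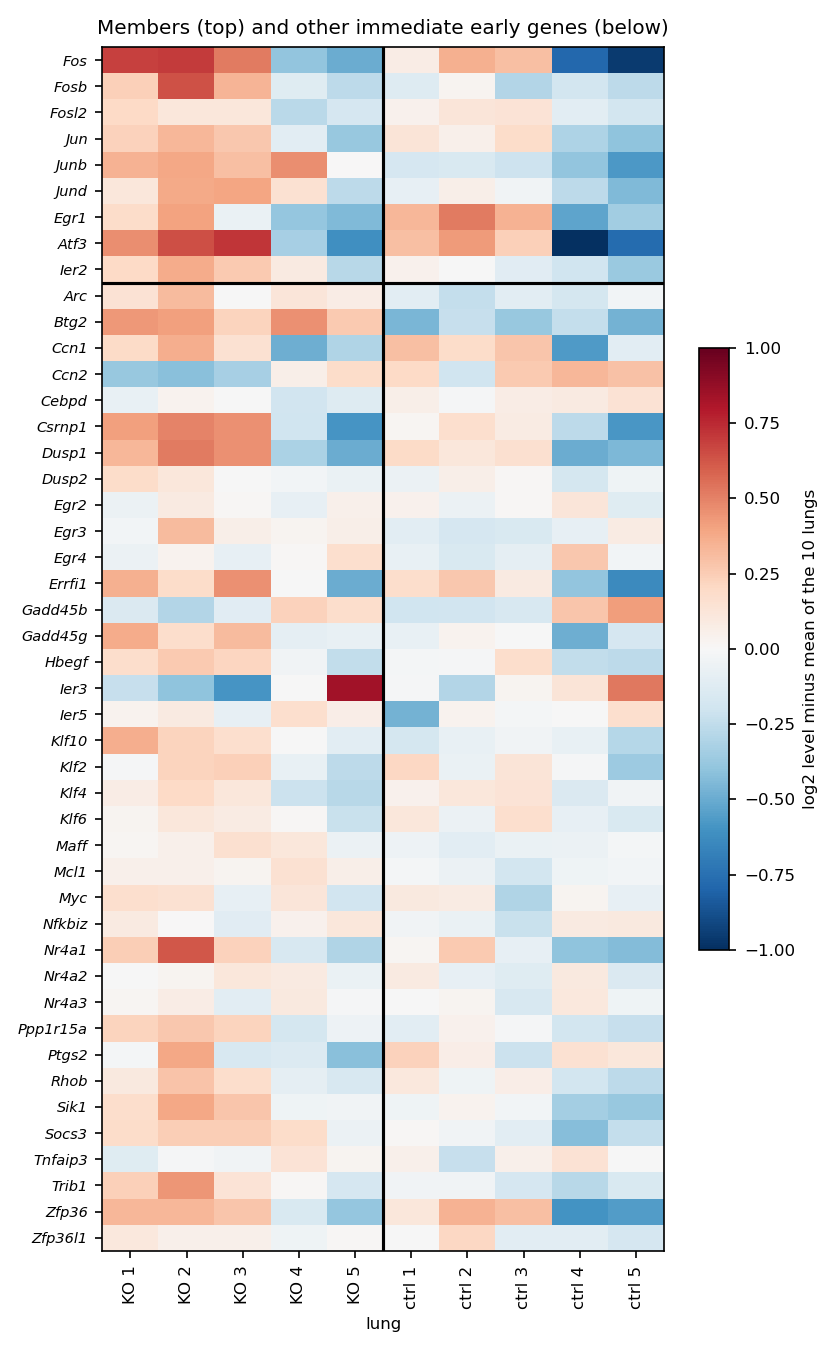
Log2 level minus the mean of the 10 lungs for the 9 genes (top) and the 37 other immediate early genes (below), with knockout lungs at the left and control lungs at the right; the colour scale ends at -1 and 1. Lungs 4 and 5 of both groups are blue for Fos, Atf3, Dusp1 and Zfp36, while Junb and Btg2 are redder in the knockout lungs than in the control lungs.

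Of 19 measured bZIP genes that can pair with Fos or Jun proteins or bind related sites, 1 rose and 0 fell, against 1.54% of all genes that rose and 3.12% called in either direction; 1 gene is too few to set the list apart. Nfe2l2, the regulator of antioxidant genes, averaged 11.63 ± 0.07 in knockout lungs and 11.22 ± 0.09 in control lungs (SD, n = 5 each), a change of 0.41 ± 0.06 (SE; limma adjusted p = 0.00139). Batf, a partner of Jun proteins in leukocytes, was 7.65, 7.61, 7.87, 8.55 and 7.92 in knockout lungs 1 to 5, against 7.28, 7.29, 7.40, 7.43 and 7.24 in control lungs 1 to 5. Its groups did not overlap, and its change of 0.59 ± 0.15 (SE) narrowly missed the threshold (limma adjusted p = 0.0519, and 0.0220 with the replicate block). The 8 leukocyte markers averaged from 7.89 to 8.18 in knockout lungs and from 8.11 to 8.21 in control lungs. The 6 neutrophil markers averaged from 7.38 to 8.12 in knockout lungs and from 7.01 to 7.56 in control lungs. Limma called 0 in either list. An unadjusted p under 0.05 was found for 2 leukocyte markers and 1 neutrophil marker, against 13.5% of all genes. The part of leukocytes and neutrophils in these changes was not tested.

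Of 20 measured kinases and serum response factors upstream of the immediate early genes, limma called 0. The unadjusted p was under 0.05 for 2, against 13.5% of all genes. These were Elk4 at 0.11 ± 0.05 (SE, limma adjusted p = 0.299) and Mrtfa at 0.13 ± 0.06 (limma adjusted p = 0.362). The activity of these kinases and factors is set largely by phosphorylation and location, which RNA levels do not measure. Of 10 genes of ERK feedback and response, 1 rose and 0 fell, against 1.54% of all genes that rose and 3.12% called in either direction. The median change of the 10 was 0.03. Etv5 rose by 0.61 ± 0.07 (SE, limma adjusted p = 0.000434). Dusp4, which did not pass, stood at 0.15 ± 0.10 (SE, limma adjusted p = 0.565).

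Of 16 measured AP-1 target genes, limma called 0, with 4 at an unadjusted p under 0.05, against 13.5% of all genes. Mmp2, a gelatinase gene, stood at -0.13 ± 0.04 (SE; limma adjusted p = 0.115) and Il1b at 0.48 ± 0.17 (limma adjusted p = 0.188); the Il1b means of 5.77 in knockout lungs and 5.29 in control lungs were below 6.11, the 20th percentile of the deposited values. With the replicate block, 2 of the 16 rose, against 2.28% of all genes: Il1b (limma adjusted p = 0.00429) and Plaur, the urokinase receptor gene (0.41, limma adjusted p = 0.00946). With lungs 1 to 3 against 4 and 5 as the block, Plaur passed (limma adjusted p = 0.0149) and Il1b did not (0.159). Of 11 measured heat shock and chaperone genes, limma called 0, and 0 had an unadjusted p under 0.05, against 13.5% of all genes. Hspa5 stood at 0.10 ± 0.06 and Hsph1 at -0.17 ± 0.11 (SE). Of 11 measured hypoxia genes, limma called 0, with 2 at an unadjusted p under 0.05, against 13.5% of all genes. Ddit4, a stress-induced inhibitor of mTOR signalling, was 10.24, 10.19, 10.30, 9.64 and 9.09 in knockout lungs 1 to 5, against 9.22, 9.70, 9.22, 8.80 and 8.60 in control lungs 1 to 5. It shared the split by number, and its change of 0.79 ± 0.25 (SE) did not pass without a block (limma adjusted p = 0.138). It passed with the replicate block (limma adjusted p = 0.00329) and with the block of number sets (0.00243). Pdk1 stood at -0.25 ± 0.07 (SE; limma adjusted p = 0.0925, 0.0314 with the replicate block and 0.0709 with the block of number sets).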

How the data were processed

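RNA of 10 whole lungs was measured on Affymetrix mouse gene arrays, 1 array per lung. The authors deposited log2 probe set values; per the submitters' processing notes the tools were oligo, RMA and limma (versions, genome build and row filter: not given in the sources used here). In all, 24888 probe sets had 0 missing values and ran from 3.53 to 13.61, and array medians from 7.428 to 7.461. The platform table gave 1 symbol to 18922 probe sets, several to 1343 and none to 4623; 18790 had a gene ID in the GRCm38.p6 table. Each gene was read from its brightest probe set on average over 10 lungs, which left 17919 genes.

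Knockout and control were compared with limma 3.58.1 in R 4.3.3 (lmFit and eBayes, two-sided), with p-values adjusted over all genes by Benjamini-Hochberg and called at 0.05; each adjusted p is limma's unless an exact permutation test is named. The test was checked on simulated data with independent noise for each gene and lung. Those data lack the split by lung number, so the check does not cover it. Log2 changes had a median standard error of 0.066; with arrays, precision is limited by how many lungs were measured. Lungs are labelled biological replicates; whether any shared a litter is not stated. The members and lists were chosen with earlier results of these data known. Named genes were the members, from each list the called genes (up to 6 with the smallest p), or the 2 with the smallest p where fewer than 2 were called, Hdac3, and the 5 genes whose deviations most resembled the mean of 7 members; others were named after their values were seen.

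Both groups carry the numbers 1 to 5. Deviations of same-numbered lungs from their group means correlated at 0.154 to 0.485, while lungs of different numbers had a median of -0.083 and a maximum of 0.33, and 7 of 10 lungs matched their own number best. The comparison, its intervals and the exact test ignore the number; the fit with the number as a block is given beside each result whose call it changes. No label states the pairing, and a difference between numbers 1 to 3 and 4 and 5 alone could raise these values. Alternatives covered blocks, single lungs left out, low values, probe sets, scaling and the variance prior. Promoter sequences are RefSeq's, build GRCm38.p6, with an entry for 7 of the 10 genes.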

Additional observations from a re-analysis of the deposited data

Results flagged for a closer look

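Among the values of 29 named genes in 58 groups of 5 lungs, 1 lung stood apart from the others of its group by Dixon's criterion (a gap of over 0.71 of the group's range); chance alone gives such a gap in about 1 of 20 groups. This was control lung 3 for Nfe2l2, at 11.07, with the other control lungs from 11.24 to 11.28 and the knockout lungs from 11.55 to 11.74.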

How the results depend on the processing

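Over all genes, the count of 559 calls became 846 with the replicate block, 910 with lungs 1 to 3 against 4 and 5 as the block and 2 within lungs 4 and 5, where 4 lungs were fitted; without single lungs it ran from 393 to 699. The count of members called by limma was 1 over all lungs, 4 with the replicate block and 3 with the number sets as the block. The count was 0 within lungs 4 and 5, where 0.0112% of all genes passed. It was 1 or 2 without single lungs, the added gene being Ier2 without knockout lung 5 (limma adjusted p = 0.0463). Junb stayed between 0.52 and 0.72 on the log2 scale and was called under 20 of 21 alternatives, the exception being lungs 4 and 5 alone (limma adjusted p = 0.337). Estimates changed sign for Egr1 within lungs 4 and 5 (0.03) and for Fosl2, which was near 0 throughout: -0.07 within lungs 4 and 5, -0.01 with arrays centred on their medians and with quantile normalization repeated, and from -0.05 to 0.07 without single lungs. Fos ran from 0.22 to 0.58, Atf3 from 0.13 to 0.55, Fosb from 0.03 to 0.54, Jun from 0.06 to 0.25 and Egr1 from -0.28 to 0.03 over their alternatives. The planned correlation with Fos over 10 lungs, and its alternatives, are not given because the lungs fall into separate clusters. Causes of these changes were not tested.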

Other observations

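The 5 genes outside the list whose deviations from the group means had the highest Pearson correlation with the mean of Fos, Egr1, Ier2, Fosb, Jun, Junb and Atf3 were Trp53inp1, Baz2a, Tmem87b, Sh2d3c and Lfng, in that order, ranked over the 10 lungs. They were picked for this likeness among all genes with a mean above 6.11, and the lungs fall into separate clusters, so neither r nor p is given. Trp53inp1, a p53-induced stress gene, was 10.75, 10.74, 10.73, 10.20 and 10.04 in knockout lungs 1 to 5, against 10.81, 10.92, 10.77, 10.24 and 10.27 in control lungs 1 to 5. All 5 genes had lungs 1 to 3 above lungs 4 and 5 in both groups. Their selection favoured this order, since most members in that mean share it. Without a block, limma called 0 of the 5 between genotypes, against 3.12% of all genes. An unadjusted p under 0.05 was found for 0 of the 5, against 13.5% of all genes. With 5 genes, counts of 0 do not set them apart from these shares. With lungs 1 to 3 against 4 and 5 as the block, Tmem87b passed (-0.17, limma adjusted p = 0.048), as did 5.08% of all genes. Tmem87b, Trp53inp1 and Lfng were each lower in the knockout at all 5 numbers. The share of all genes with that order was not computed.

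Of the 5 mesothelial markers, 2 rose, against 1.54% of all genes. These were Krt19, by 0.67 ± 0.10, and Msln, by 0.46 ± 0.08 (SE, limma adjusted p = 0.00251 and 0.0103). Which cells of the lung these 2 rises came from was not tested. Wt1, a defining gene of mesothelium, stood at 7.43 in both groups. Lrrn4 stood at 6.88 in knockout lungs and 6.90 in control lungs. Upk3b, in the same list, stood at -0.26 ± 0.07 (SE; limma adjusted p = 0.102), and fell with the replicate block (0.0271) and with the block of number sets (0.0414). Among the neutrophil markers, Ltf, the lactoferrin gene, which glandular epithelia also express, averaged 8.89 in knockout lungs and 7.94 in control lungs (limma adjusted p = 0.0823, 0.0361 with the replicate block and 0.0736 with the block of number sets). The other 5 did not pass in any of these fits: the changes were 0.47 for Retnlg, 0.22 for S100a9, 0.17 for S100a8, -0.01 for Ngp and -0.04 for Camp.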
